A study of Mus musculus with 4 samples.

Results

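Med1-bound sites were followed across every annotated gene of the mouse genome, and not only at enhancers. The members are all 19956 sites of the Med1 list, out of 36793 sites in the 3 lists of the series, which also hold 8759 Carm1 sites and 8078 Jmjd1c sites. Chromatin immunoprecipitation with sequencing (ChIP-seq) was done in the NS-5 line of mouse neural stem cells, for which the labels name no transgene or deletion. The cells were untreated, grown attached to gelatin in N2 medium with the growth factors EGF and FGF2, and fixed with disuccinimidyl glutarate followed by formaldehyde. One group is the chromatin pulled down with a Med1 antibody and the other the chromatin pulled down with normal rabbit IgG, against which the sites were called. Each antibody has 1 library from 1 cell line, so there is no replicate error in what follows. Intervals are 95% Wilson intervals over sites or genes and cover counting error only, and genes are not independent replicates. The depth of each library is unknown here, and the list holds positions without heights or p-values.

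Med1 is a subunit of Mediator, a large complex that links transcription factors bound at promoters and enhancers to RNA polymerase II. Mediator enters at the transcription start site (TSS) through the polymerase machinery and at distal enhancers through transcription factors, and Med1 is the subunit that nuclear receptors contact. Formaldehyde alone captures such indirect contacts with DNA poorly, and the added longer cross-linker joins proteins to each other. A site here is a stretch of the mm9 genome where the caller found more Med1 than IgG reads. The sites lay on chromosomes 1 to 19 and X, did not overlap each other, and covered 34.2 Mb or 1.30% of those chromosomes. Their width ran from 414 to 18300 bp with a median of 1502 bp and quartiles of 1137 and 2015 bp.

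Windows of 150 bases show what kinds of DNA the sites lie on. They were chosen, after the values were seen, from the genes and sites that mark the extremes described below. The first set lies just upstream of the annotated TSS of genes whose TSS site spreads far into or beyond the gene, written in the direction of the gene. Capitals mark matches on either strand to the E-box CAGNTG, the NFI core TTGGC, the SOX motifs ACAATG and ACAAAG, the GC box GGGCGG, the CCAAT box CCAAT and the AP-1 motif TGANTCA. The NFI core and the CCAAT box share bases where ATTGGC or its reverse complement occurs, and a match is a run of letters and not a shown binding site.
Bahcc1 upstream (chr11:120094111-120094260, plus strand): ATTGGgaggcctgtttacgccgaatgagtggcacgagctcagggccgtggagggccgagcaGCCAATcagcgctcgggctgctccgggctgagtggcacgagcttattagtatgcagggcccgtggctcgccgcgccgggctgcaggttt
Spry2 upstream (chr14:106296037-106296186, minus strand): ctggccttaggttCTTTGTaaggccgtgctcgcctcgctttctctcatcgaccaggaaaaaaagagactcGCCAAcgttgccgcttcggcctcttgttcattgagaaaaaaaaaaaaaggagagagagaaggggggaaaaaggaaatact
Dusp6 upstream (chr10:98725715-98725864, plus strand): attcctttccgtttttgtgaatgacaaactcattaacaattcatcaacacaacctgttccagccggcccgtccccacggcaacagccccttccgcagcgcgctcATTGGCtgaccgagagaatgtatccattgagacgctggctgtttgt
Olig2 upstream (chr16:91225645-91225794, plus strand): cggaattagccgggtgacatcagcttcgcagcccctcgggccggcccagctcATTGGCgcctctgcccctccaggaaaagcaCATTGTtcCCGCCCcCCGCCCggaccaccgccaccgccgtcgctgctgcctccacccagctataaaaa
The second set lies at the middle of intron sites of 2 long genes with many sites, and the third at the middle of sites far from any gene, all on the plus strand. Of the third set, the first 2 are the sites farthest from any gene, and the sites between SNORA65 and Peli1 and on the Tbl1xr1 side stand at places 116 and 512 of the list.
Nfib intron site (chr4:81950187-81950336, plus strand): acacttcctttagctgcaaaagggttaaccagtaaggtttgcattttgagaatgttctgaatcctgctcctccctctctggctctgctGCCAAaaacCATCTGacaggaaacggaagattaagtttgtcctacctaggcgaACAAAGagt
Npas3 intron site (chr12:55135129-55135278, plus strand): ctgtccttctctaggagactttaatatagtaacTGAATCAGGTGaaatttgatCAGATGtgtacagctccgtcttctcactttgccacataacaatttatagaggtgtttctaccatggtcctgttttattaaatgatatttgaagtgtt
Cdc73-side site (chr1:144639040-144639189, plus strand): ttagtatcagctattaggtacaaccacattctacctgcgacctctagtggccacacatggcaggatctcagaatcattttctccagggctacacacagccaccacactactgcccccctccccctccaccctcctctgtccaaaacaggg
Gm9915-side site (chr1:41612766-41612915, plus strand): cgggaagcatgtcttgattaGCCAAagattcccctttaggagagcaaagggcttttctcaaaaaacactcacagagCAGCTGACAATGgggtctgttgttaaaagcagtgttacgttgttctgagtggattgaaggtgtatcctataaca
SNORA65-Peli1 site (chr11:20815373-20815522, plus strand): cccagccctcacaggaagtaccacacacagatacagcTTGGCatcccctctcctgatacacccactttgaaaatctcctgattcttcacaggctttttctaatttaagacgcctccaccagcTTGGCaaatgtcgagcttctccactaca
Tbl1xr1-side site (chr3:21571493-21571642, plus strand): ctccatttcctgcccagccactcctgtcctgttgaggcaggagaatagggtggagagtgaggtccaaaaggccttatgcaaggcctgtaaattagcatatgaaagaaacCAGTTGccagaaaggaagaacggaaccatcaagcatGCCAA
The 4 upstream windows held 8 to 14 CpG dinucleotides each, and the 6 distal windows 1 or 2. The Olig2 window carries 2 GC boxes beside a SOX match, the Npas3 window 2 E-boxes of which one overlaps an AP-1 match, and the farthest site none of the motifs. All windows were read from the mm9 genome.

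Sites were placed against GENCODE vM1, an annotation of 37252 genes of 14 types on these chromosomes, of which 22350 are protein-coding. In all, 14733 of 19956 sites, or 73.8% (73.2 to 74.4), overlapped a gene body by at least 1 bp, while gene bodies make up 40.0% of the base pairs. Of the base pairs covered by sites, 60.6% lay in gene bodies, since many sites straddle a TSS. The largest class was the 7701 sites over the TSS of a protein-coding gene, 38.6% (37.9 to 39.3) of the list. A further 419 sites (2.10%) covered only the TSS of another gene type, and 1052 (5.27%) lay in a gene and covered the 5′ end of a transcript that does not start at the gene's outermost base. Inside genes and away from every annotated 5′ end lay 4222 intron sites (21.2%) and 1339 sites that touch an exon (6.71%). The remaining 5223 sites (26.2%) lay outside genes.

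**Figure D1:**
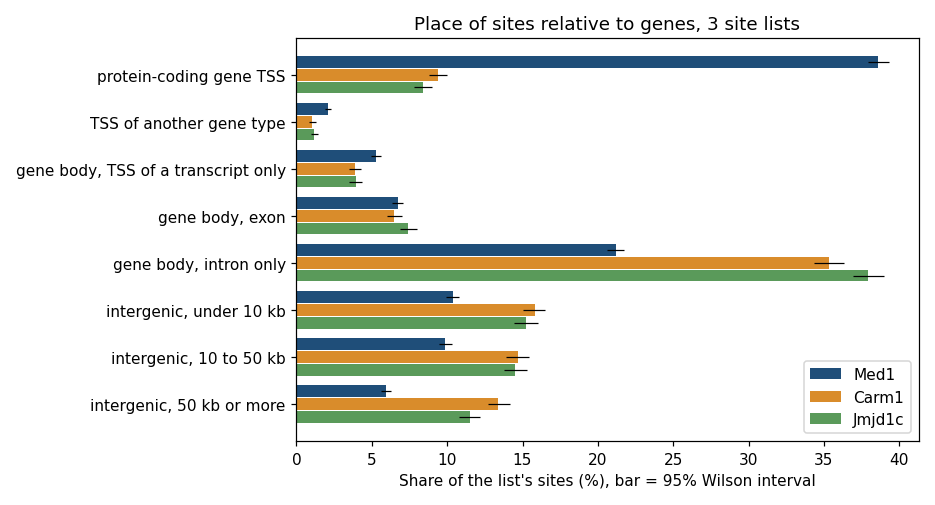
Share of sites in each place relative to GENCODE vM1 genes, in percent of each list, for the Med1, Carm1 and Jmjd1c lists, with 95% Wilson intervals as lines. The Med1 bar over protein-coding TSSs reaches 38.6%, and the Carm1 and Jmjd1c bars are longest for introns, at 35.3% and 37.9%.

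TSS sites were also the wide ones and stood early in the list. Sites over a protein-coding TSS had a median width of 1816 bp (quartiles 1466 and 2326), intron sites 1229 bp (991 and 1592) and sites at least 50 kb from any gene 1232 bp (984 and 1619). No source used here gives the rule by which the list is ordered, and the run in chromosome order at its top breaks after 31 entries. In the first 3992 places of the list the median width was 2262 bp and 59.9% of sites covered a protein-coding TSS. In the last 3991 places the median width was 1058 bp and 18.2% did. Between the same ends of the list the share of intergenic sites went from 16.1% to 35.8%, and that of sites at least 50 kb from a gene from 3.28% to 8.69%.

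A site counts for every gene it overlaps, so that overlapping genes share sites. Of all genes, 12359 of 37252, or 33.2%, held a site in the gene body, and 26.7% had their own TSS inside a site. Of protein-coding genes, 48.1% held a site and 39.2% had the TSS inside one. Most lincRNA genes, a class of long noncoding RNAs, overlap a protein-coding gene in this annotation and can share its sites. Among lincRNA genes, 687 or 54.0% (51.2 to 56.7) held a site and 40.9% (38.3 to 43.7) had the TSS in one. In 376 of those 521 lincRNA TSSs, or 72.2%, the same site also covered a protein-coding TSS. Of 523 lincRNA genes that overlap no protein-coding gene, 246 had the TSS in a site, and 87 of them in a site without a protein-coding TSS. Processed transcripts, a mixed class of noncoding RNAs, stood at 20.5% with a site. Short RNA genes stood far lower, with 5.65% of 1576 miRNA, 6.31% of 1552 snoRNA and 5.06% of 1422 snRNA genes. Pseudogenes stood at 2.08% of 5200, and no immunoglobulin segment gene held a site. Short RNA genes and pseudogenes have many near-identical copies, and reads with several alignments were kept at the best one, so the copy that carries a site is uncertain.

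At protein-coding TSSs, the site reached somewhat farther into the gene than away from it. Over the 8757 covered TSSs the median reach was 973 bp in the direction of the gene (quartiles 736 and 1355) and 790 bp upstream (609 and 1068). The median difference within a gene was 179 bp, with quartiles of -145 and 554 bp, and 5662 genes, 64.7% (63.6 to 65.7), reached farther downstream. Among the 6208 covered genes with no other protein-coding TSS within 5 kb, the share was 70.2% (69.1 to 71.4) and the median difference 234 bp. Among the 2549 genes with such a neighbour it was 51.1% (49.1 to 53.0) and 10 bp. In the Med1 list, 1008 sites covered several protein-coding TSSs, and such a site was scored for each of these genes. Where the genes lie on opposite strands, bases downstream for a gene are upstream for its neighbour. Their differences then offset each other by geometry, whatever the binding. The intervals for the 2549 and for all 8757 genes count these sites repeatedly. The size of this effect was not tested. A reach of at least 5 kb into the gene's direction was found at 69 TSSs, and 38 TSSs had such a reach upstream. In the profile, 4.93% of protein-coding genes were covered 2000 bp downstream of the TSS and 3.42% at 2000 bp upstream. By 5000 bp the shares were 2.43% downstream and 2.76% upstream.

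**Figure D2:**
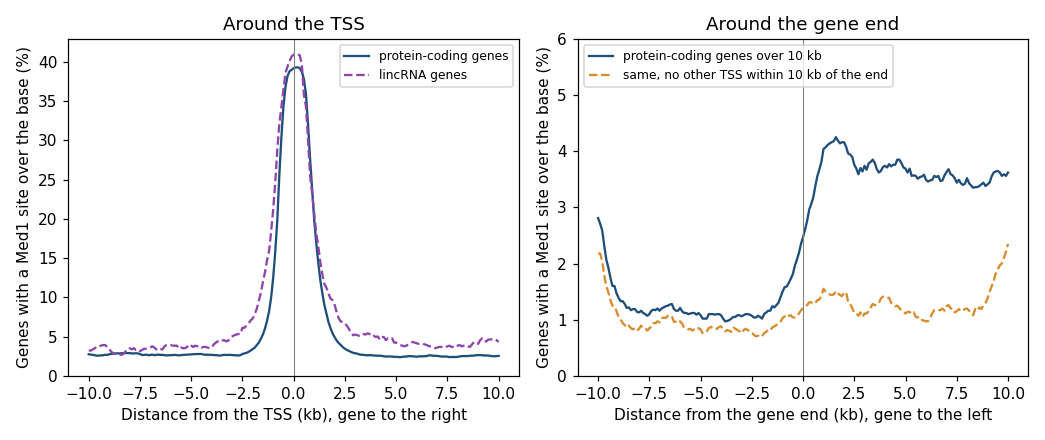
Share of genes with a Med1 site over each base (%), every 100 bp, against distance in kb from the TSS (left, 22350 protein-coding genes and the lincRNA genes) and from the gene end (right, 13494 protein-coding genes over 10 kb and the 8941 of them with no other TSS within 10 kb of the end). The protein-coding TSS curve is wider on the gene's side, and the curve past the gene end stands above the curve before it.

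The farthest reach inside a protein-coding gene belonged to Bahcc1, a chromatin-associated BAH and coiled-coil protein. Its TSS lay in a site of 16289 bp, chr11:120089545-120105833, which ran 11572 bp into the gene and 4716 bp upstream and also met the noncoding genes 2900052L18Rik and Gm11772. This site stood at place 4397 of the list, behind 2 further Bahcc1 sites of 6124 and 6115 bp at places 1360 and 490. A table of enhancer regions, deposited with the lists, gives for each region the read density of Med1 and of IgG scaled to mapped reads and summed over the region, here divided by its length in kb. In its only region over Bahcc1 the Med1 signal was 1400 per kb and the IgG signal 341 per kb. Spry4, which encodes a Sprouty inhibitor of receptor tyrosine kinase signalling, came next with 11347 bp on chromosome 18. It shares that site with the TSSs of Arhgap26 and 9630014M24Rik on the other strand, whose reach upstream is 11613 bp through the same bases. Scd2, a stearoyl-CoA desaturase of lipid synthesis, followed with 10453 bp, and with a second site of 11725 bp over its 3′ end it was covered over 99.7% of 13189 bp. Sall3, a zinc finger transcription factor, had a reach of 9645 bp and Srcin1, an adaptor that inhibits Src kinase, 7206 bp.

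Far upstream reach was found where several genes are packed together. The histone genes Hist1h3b (15305 bp), Hist1h2bh (14539 bp), Hist1h2ab (14126 bp) and Hist1h1d (13489 bp) were among the 5 with the farthest. These values come from 2 sites in all, which run over neighbouring genes, and histone genes are near-identical copies of each other. Of 8120 sites over any gene TSS, 6426 covered 1 TSS, 1590 covered 2 and 104 covered 3 or more. A site of 5077 bp on chromosome 1 covered the most, 11, namely Zbtb37, the snoRNA host gene Gas5 and its snoRNA genes. A site of 8953 bp on chromosome 11 covered 6, among them Tlcd1, Nek8 and the ribosomal protein gene Rpl23a.

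The gene end, the outermost 3′ base, lay inside a site in 871 of 22350 protein-coding genes, or 3.90%. In 229 of the 871 (26.3%) the same site also held the TSS, so that the whole gene lay in 1 site. In another 309 the TSS of another gene lay within 2 kb of the end, and 333 (38.2%) had neither. Past the end, sites reached a median of 1228 bp (quartiles 580 and 1985), and 42 reached at least 5 kb. Among 13494 genes longer than 10 kb, 1.02% were covered at 2000 bp before the end, 2.47% at the end and 4.16% at 2000 bp past it. Where no other TSS lay within 10 kb of the end, the same shares were 0.705%, 1.21% and 1.48%. At 5000 and 10000 bp past the end, the shares were 3.69% and 3.62% in all 13494 genes. Without another TSS they were 1.11% and 2.35%, and 10000 bp is where the excluded distance stops.

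The farthest sites past a gene end were those of Hist1h1c (14191 bp), Hist1h3f (12843 bp), Frmd8 (11163 bp), Hoxa3 (10923 bp) and Hist1h2an (10711 bp). The histone genes each lay whole in their site, so that their downstream reach is a reach over neighbouring histone genes. Frmd8, a FERM domain protein gene of 25.6 kb, has its end, but not its TSS, in the site that also covers the TSS of Neat1, the noncoding RNA of nuclear paraspeckles. Hoxa3, a homeobox gene, is annotated as 2 genes, and the value is that of the shorter one.

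The longest protein-coding genes lying whole in 1 site were a few kb long. Tlcd1, a membrane lipid regulator, measured 5199 bp. Spry2, a Sprouty inhibitor of growth factor signalling, measured 4871 bp in a site of 12948 bp that reached 3348 bp upstream and 4729 bp past the end. Dusp6, a phosphatase that turns off ERK, measured 4258 bp in a site of 12861 bp, with 3283 bp upstream and 5320 bp past the end. Egr1, an immediate early transcription factor gene on chromosome 18, measured 3778 bp. The upstream windows of Spry2 and Dusp6 printed above lie inside these sites.

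Longer genes more often held a site, and more of them held several. Most protein-coding genes with a site had just 1 (8027 genes), 1667 had 2, and 1060 genes or 4.74% had 3 or more. With only the first 10000 sites of the list, 1.24% had 3 or more. At least 5 sites were found in 290 genes and at least 10 in 28. Of genes under 5 kb, 21.3% (20.3 to 22.4) held a site, and of genes of at least 200 kb 71.8% (68.9 to 74.6). The share with the TSS in a site was 19.5% in the shortest class and between 38.1% and 50.6% in the others. Length goes with gene family too: the 1113 olfactory receptor genes, with a median length of 960 bp, held no site. Their part in the low shares of the shortest class was not tested. A site away from any annotated 5′ end was held by 1.88% of the shortest and 55.9% of the longest genes. Counted per length, such sites numbered 0.942 per 100 kb in genes under 5 kb, between 0.596 and 0.709 from 5 to 200 kb, and 0.390 in genes of at least 200 kb. A site that overlaps a gene by 1 bp counts in full, which raises the density per length most in short genes. The size of this effect was not tested.

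**Figure D3:**
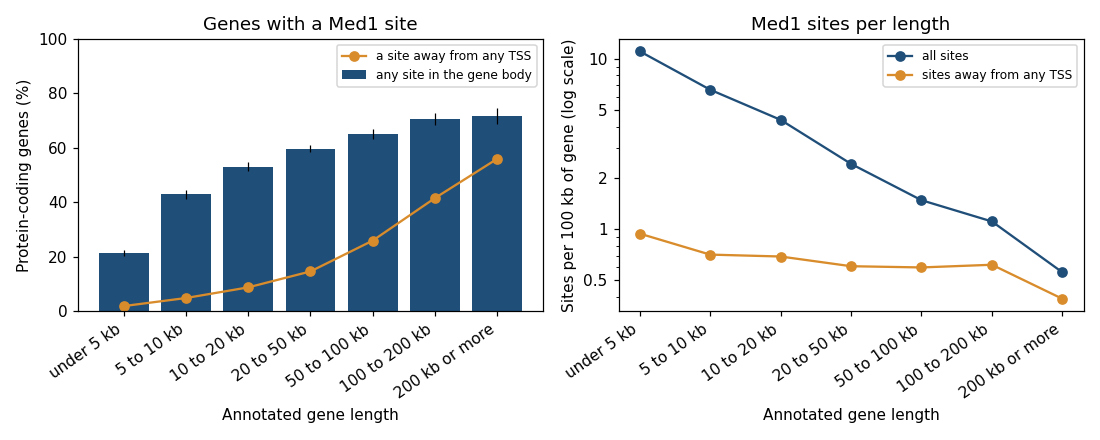
Left, the share of protein-coding genes (%) with any Med1 site (bars, lines are 95% Wilson intervals) and with a site away from any TSS (points), by annotated gene length. Right, sites per 100 kb of gene on a log scale: all sites fall from 11.1 to 0.558 per 100 kb with length, and sites away from any TSS from 0.942 to 0.390. An overlap of 1 bp counts as a site, which raises the density in short genes.

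Within genes of at least 50 kb, the 3794 gene-site pairs away from any 5′ end were spread along the gene. With each gene divided into 10 equal parts, the first part held 9.62% of them, the last 9.54%, and every part between 9.15% and 11.5%. By distance, the density was 0.525 per 100 kb in the first 5 kb past the TSS, 0.602 from 20 to 50 kb, and 0.390 beyond 100 kb. Sites over a 5′ end were left out while the bases under them were kept in the length, which lowers the density close to the TSS. The size of this effect was not tested. Of protein-coding genes with a site, 1997 of 10754 (18.6%) had none over their own TSS.

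The covered length of a gene with a site had a median of 1132 bp (quartiles 779 and 1946), which is 5.69% of the gene length at the median. A covered length of at least 5 kb was found in 667 genes, of at least 10 kb in 172 and of at least 20 kb in 25. The top of this order needs care with the gene models. Gm20388 came first with 171667 bp in 106 sites, yet its only transcript spans 4435 kb and 72 other protein-coding genes lie inside it. Fgfr2, a fibroblast growth factor receptor gene, came second with 52114 bp in 33 sites over 3009 kb. Of its 29 transcripts 1 alone gives this extent, and the others span 104 kb with 2 sites and 4118 covered bp.

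Among genes that hold no or few other genes, Sept9 led. It encodes a septin, a GTP-binding filament protein, and had 46355 covered bp in 14 sites over 163 kb of chromosome 11, or 28.5% of its length. None of the 14 sites covered the annotated gene TSS, but 4 covered the start of a transcript inside the gene and the widest covers the TSS of the gene Gm16045. Their midpoints lay 32362 to 157987 bp past it, and the 4 widest measured 7269, 6389, 5833 and 5070 bp, with list places between 110 and 817. Nfib, a nuclear factor I transcription factor of the developing brain, followed with 35919 bp in 18 sites over 416 kb, also with none over the gene TSS. Its widest site, 6167 bp at place 263, covers the TSS of the noncoding gene Gm11266 inside the Nfib body. The intron site printed above, place 3270, lies 401392 bp past the Nfib TSS and near the gene's end, and overlaps Carm1 and Jmjd1c sites.

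Arhgap26, a GTPase activating protein gene, had 33956 bp in 19 sites over 775 kb of chromosome 18. E130114P18Rik, which is named as a noncoding RNA in RefSeq and as protein-coding in the annotation used here, had 33752 bp in 13 sites. It starts head to head with Nfia, another nuclear factor I gene, and both genes hold the sites of 5871 and 3198 bp at their starts. Nfia itself held 11755 bp in 4 sites over 429 kb. Msi2, an RNA-binding protein of neural stem cells, had 32186 bp in 15 sites, and Npas3, a bHLH-PAS transcription factor, 30087 bp in 18 sites over 823 kb. The midpoints of the Npas3 sites lay from 759 bp upstream of the TSS to 796659 bp past it. The TSS site stood at place 988, and the site at 785540 bp, whose window is printed above, at place 450.

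Tex14, a gene of germ cell bridges, came ninth with 27985 bp in 7 sites. Of these, 5 sites at list places 3, 4, 5, 41 and 52 each cover the start of U1, U3 or U6 RNA genes inside the Tex14 body, which are multicopy. In enhancer regions over them, the Med1 signal was between 3957 and 6207 per kb and the IgG signal between 345 and 575 per kb. Cuedc1, a ubiquitin-binding CUE domain protein gene, had 26894 bp in 13 sites over 94995 bp, or 28.3% of its length. Tead1, a transcription factor of the Hippo pathway, ranked among the 10 genes with most sites with 14 sites and 20127 bp.

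**Figure D4:**
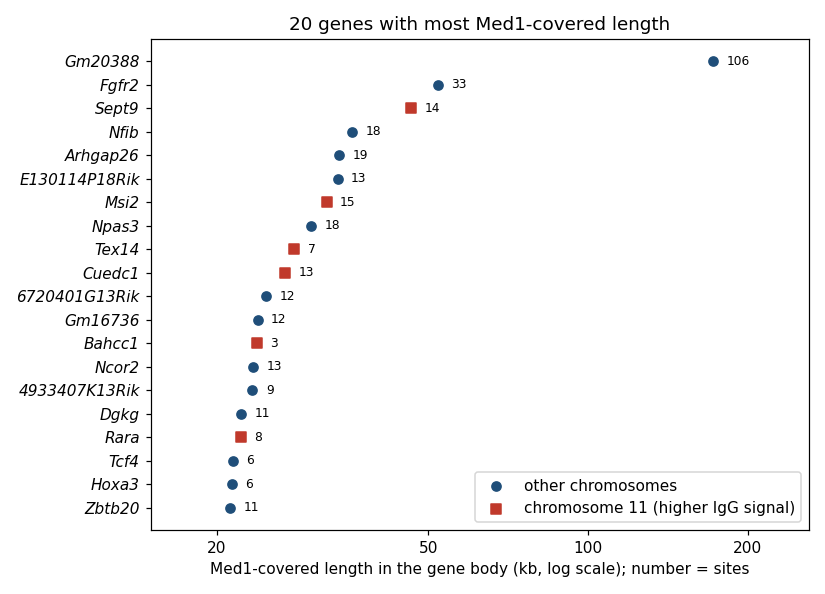
Med1-covered length in the gene body (kb, log scale) of the 20 genes with most, with the number of sites beside each point. Squares are genes on chromosome 11, where the IgG signal was higher; Gm20388 and Fgfr2 owe their place to annotated extents of 4435 and 3009 kb.

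Of noncoding genes, 6720401G13Rik led with 24736 bp in 12 sites over 79.6 kb of the X chromosome. RefSeq names it Firre, a nuclear RNA built of repeated elements. The lincRNA 4933407K13Rik, which RefSeq lists with the synonym Dxz4, a tandem repeat locus of the X chromosome, had 23339 bp in 9 sites and was covered over 40.4% of its length. Both loci are built of repeats, and the alignment of reads between repeat copies is uncertain. Their widest sites measured 7017 bp (place 42) and 4102 bp (place 58). Of the 12 Firre sites none overlapped a Carm1 or Jmjd1c site. Most intron and exon sites of the whole Med1 list overlapped neither list as well. At 4933407K13Rik some of the 9 sites overlapped a Carm1 site, and one of these also a Jmjd1c site. The X chromosome as a whole held 443 sites, 2.66 per Mb, against 5.89 to 14.8 per Mb on the autosomes. Its enhancer regions also had the lowest median signals of any chromosome, 282 per kb for Med1 and 65.6 per kb for IgG. The part of this lower signal in the site count was not tested. Gm16736 had 23868 bp in 12 sites, but 16 protein-coding genes lie inside it and 11 of its sites cover a protein-coding TSS. Sox2ot, which overlaps Sox2, had 19918 bp in 8 sites over 578 kb, and Gm17480, which holds 14 protein-coding genes, 18714 bp in 12 sites.

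The longest protein-coding genes without any site were Cntnap2 (2241 kb), a neurexin-like adhesion gene, Csmd1 (1643 kb), Gpc5 (1432 kb), a glypican gene, and the interleukin receptor-like genes Il1rapl1 (1375 kb) and Il1rapl2 (1276 kb). By contrast Npas3, at 823 kb, held 18 sites.

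Cell type markers were read against the background that 48.1% of protein-coding genes held a site and 39.2% had it over the TSS. Of 15 neural stem cell genes 14 held a site, all but Prom1, and 12 had the TSS in one. Slc1a3, a glutamate transporter of radial glia, had 16490 covered bp in 4 sites, and Notch1, the receptor of the Notch pathway, 16069 bp in 6 sites of which none lay over its TSS. Hes1 and Olig2, transcription factors of neural progenitors, lay whole in 1 site, and the Olig2 site reached 6417 bp past the gene end. Nes and Sox2 are the markers whose protein the study tested in these cells. Nes, an intermediate filament gene, had 4715 bp in 2 sites with a reach of 7416 bp past its end, and Sox2 2383 bp in 2 sites. Of 6 astrocyte genes 5 held a site, all but Aqp4: Aldh1l1 had 10499 bp in 3 sites away from its TSS, Slc1a2 2544 bp and Gfap 2170 bp.

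Of 12 neuronal genes 5 held a site, or 41.7%, near the share of all protein-coding genes, and 2 (16.7%) had the TSS in one. The 12 had a median length of 56286 bp, and 65.2% of protein-coding genes of 50 to 100 kb held a site. Gad1 had 2005 covered bp, Tubb3 1348 bp and Syt1 1106 bp. Of 6 oligodendrocyte genes 2 held a site, Mbp with 1439 bp and Cnp with 1234 bp. Of 6 endothelial genes 2 did, Pecam1 with 5868 bp in 4 sites and Tek with 1174 bp. Tal1 (1480 bp) of the 5 blood genes found in the annotation and Myod1 (295 bp) of 6 muscle genes were the only members of their lists. None of the 6 microglial, 6 liver and 6 germ or pluripotent cell genes held a site, Pou5f1 and Nanog included. Immediate early genes, which cells switch on within minutes of a growth signal, held a site in 14 of 15, all over the TSS. Myc had 4918 bp in 2 sites, Klf6 3876 bp in 2, and Egr1 3778 bp in 1.

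Gene families were read against the same shares of all protein-coding genes, 48.1% with a site and 39.2% with the TSS in one. None of 1113 olfactory receptor genes held a site, 1 of 322 vomeronasal receptor genes did, Vmn1r90 with 373 bp, and 1 of 97 keratin and keratin-associated genes did, Krt10 with 1810 bp. Ribosomal protein genes held a site in 75 of 82, with the TSS covered in 71. Of 34 Mediator subunit and kinase module genes 31 held a site and 29 had it over the TSS, and Med1 itself was 1 of the 3 without a site, beside Med22 and Med30. Zfp zinc finger genes stood at 250 of 371, or 67.4%. Solute carriers, at 169 of 336 or 50.3%, and collagen genes, at 20 of 43 or 46.5%, lay near the share of all genes. Of the collagen genes 4 (9.30%) had the TSS covered, and their median length was 114371 bp. Of all protein-coding genes of 100 to 200 kb, 70.7% held a site and 48.4% had the TSS in one. Keratins and receptor families lie in gene clusters, and members of a cluster are not independent of each other.

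Of the genes that the study names, 9 were picked for description: Nfia, Tcf4, Sox2, Olig1, Klf15, Jag1, Tulp3, Trim8 and Myc. These 9 held between 1 and 6 sites each, with the TSS in a site. Nfib and Notch1, which the study names as well, had no site over the gene TSS. Of all protein-coding genes, 39.2% had the TSS in one. The study named the 9 from or beside these same Med1 data, so that they hold sites is no independent result. Tcf4, a bHLH partner factor on chromosome 18, had 21412 bp in 6 sites with a TSS site that reached 5645 bp into the gene and 398 bp upstream. Jag1, a Notch ligand, had 6409 bp in 3 sites. Trim8, a RING finger protein gene, had 4240 bp, Tulp3, a ciliary transport gene, 3770 bp, and Klf15, a Krüppel-like factor gene, 3516 bp, in 2 sites each. Olig1 had 873 bp in 1 site that ended inside the gene, whereas its neighbour Olig2 lay whole in 1 site.

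Outside genes, the 5223 sites lay at a median of 15481 bp from the nearest gene of any type (quartiles 4986 and 44465). At least 50 kb from any gene lay 1187 sites, 5.95% (5.63 to 6.28), while 27.8% of the base pairs lie that far. At least 100 kb away lay 553 sites (2.77%), and 11 sites lay beyond 500 kb. The farthest, chr1:144638714-144639515, was 802 bp wide, stood at place 19663 and lay 806411 bp from Cdc73. The next, chr1:41612315-41613367, lay 673203 bp from Gm9915 in the interval between Tmem182 and Gm9915, which held 2 more of the 10 farthest sites. It overlapped a Jmjd1c site and an enhancer region with a Med1 signal of 390 per kb and an IgG signal of 118 per kb. The other 3 of the 5 farthest lay on chromosome 18 past Fbxo15 (662825 bp from it), in the same Tmem182 to Gm9915 interval (623888 bp from Gm9915) and on chromosome 15 near Dnahc5 (607791 bp from the nearest gene, a miRNA).

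Gene-free intervals could hold many sites. Of 3165 intervals with a site, 133 held at least 5 and 9 held at least 10. The interval with most, 16 sites with 25468 bp, lies between Gm10398 and Gm17716 on chromosome 14, with Rps24 and Zmiz1 as its protein-coding neighbours. The 341 kb between Irf2bp2 and Tomm20 held 13 sites and 25573 bp, with 6 sites at least 50 kb from a gene. Between Gm7488 and Tbl1xr1 all 13 sites were that far, over 1026 kb. The 537 kb between Pabpc6 and Qk, an RNA-binding protein gene of glia, held 12 sites with 30647 bp, and the interval past Sox2ot 11 sites, all at least 50 kb from a gene. Near Ccnd1, the cyclin D1 gene, 9 sites lay in 314 kb.

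Signals per kb were read from the deposited enhancer table, from which regions near a TSS were left out by the authors: 0.831% of sites over a protein-coding TSS met an enhancer region, against 52.9% of intron sites and 57.9% of sites at least 50 kb from a gene. Enhancer regions with such a far site had a median Med1 signal of 439 per kb (quartiles 311 and 626) and a median IgG signal of 126. Regions with an intron or exon site away from a gene TSS had 447 and 124. Regions with a site over a gene TSS had 625 and 167, and regions without a Med1 site 271 and 137. In 99.3% of the regions with a far site the Med1 signal was above the IgG signal, and in 90.0% of the regions without a site. Sites were called where Med1 exceeded IgG in these same libraries, so the higher Med1 signal in regions with a site is largely fixed by the calling.

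Base composition followed the place of a site. In the 200 bp at the midpoint, the median GC content was 66.0% over protein-coding TSSs, 50.5% in introns and 48.5% at least 50 kb from a gene. Windows of the same length taken every 20 kb of the genome had 41.5%. An observed to expected CpG ratio of at least 0.6, which marks CpG islands, was met by 81.3% of protein-coding TSS sites, 4.45% of intron sites and 4.63% of far sites, and by 2.71% of genome windows. The GC box, bound by Sp factors, was matched in 51.0% (49.8 to 52.1) of protein-coding TSS sites and 6.66% (5.37 to 8.22) of far sites, with 1.95% in genome windows.

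Matches to motifs of neural transcription factors went the other way. The E-box, bound by bHLH factors such as Olig2, was found in 28.8% (27.8 to 29.8) of protein-coding TSS sites, 51.4% (49.9 to 52.9) of intron sites and 52.9% (50.1 to 55.7) of far sites, with 36.6% in genome windows. The NFI core was found in 32.3%, 45.3% and 47.5%, with 27.2% in genome windows. A SOX motif was found in 11.5%, 31.3% and 33.0%, with 28.4% in genome windows. AP-1 motifs were found in 2.14%, 8.41% and 9.60%, with 6.01% in genome windows, and the CCAAT box in 19.3%, 20.8% and 23.5%, with 29.6% in genome windows. The frequency of such letters depends on base composition, which moves with place, and its part in these shares was not tested.

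**Figure D5:**
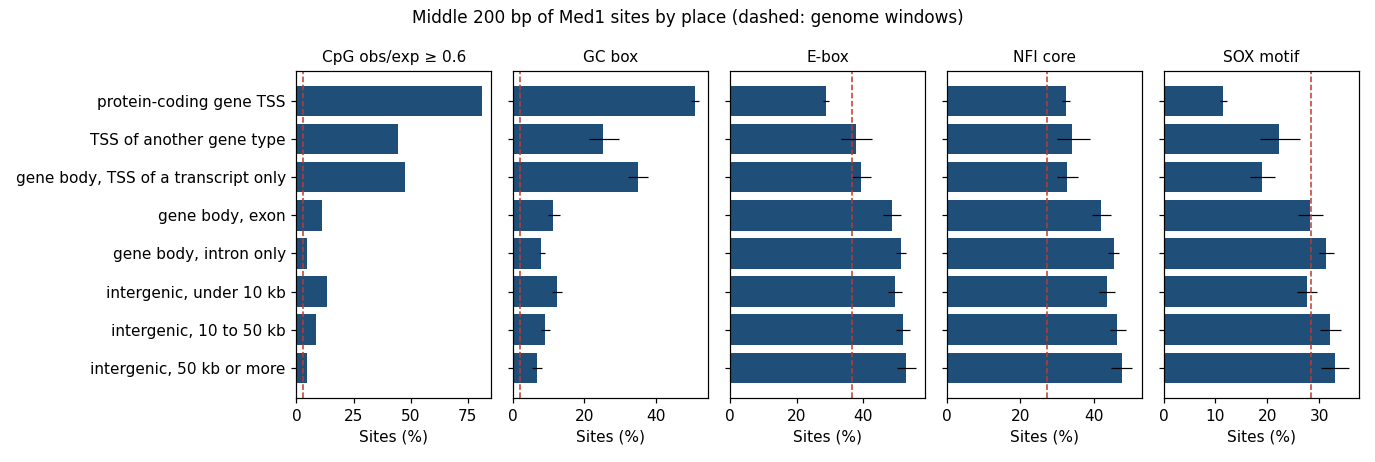
Share of Med1 sites (%) by place whose middle 200 bp have a CpG ratio of at least 0.6 or a motif match on either strand, with 95% Wilson intervals for motifs. The dashed line is the share in 200 bp windows every 20 kb of the genome. CpG-rich and GC box windows are most frequent at protein-coding TSSs (81.3% and 51.0%), E-box, NFI and SOX matches in introns and far from genes.

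The same measures in the other lists are given side by side, without a test, because the lists were called at thresholds that may differ and their sites are narrower, with median widths of 269 bp for Carm1 and 312 bp for Jmjd1c. Shares are of the 8753 Carm1 and 8074 Jmjd1c sites on chromosomes 1 to 19 and X. Carm1 is an arginine methyltransferase and Jmjd1c a histone demethylase family protein. A protein-coding TSS lay under 9.39% (8.80 to 10.0) of Carm1 sites and 8.38% (7.80 to 9.01) of Jmjd1c sites, against 38.6% of Med1 sites. At least 50 kb from any gene lay 13.4% (12.7 to 14.2) of Carm1 and 11.5% (10.8 to 12.2) of Jmjd1c sites. Of protein-coding genes, 3.97% had the TSS in a Carm1 site and 3.24% in a Jmjd1c site. Med1 sites far from genes overlapped the other lists more often than TSS sites did: 40.2% (37.4 to 43.0) of sites at least 50 kb from a gene met a Jmjd1c site and 33.9% (31.2 to 36.6) a Carm1 site, and 24.8% met both. At protein-coding TSSs the shares were 18.6% (17.8 to 19.5), 20.8% (19.9 to 21.7) and 6.38%. Far sites are also narrower than TSS sites, with medians of 1232 and 1816 bp.

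Chromosomes 11 and 15 stood apart in the control with a higher IgG signal, and the X chromosome with a lower one. The median IgG signal of enhancer regions was 210 per kb on chromosome 11, 173 on chromosome 15 and 65.6 on the X chromosome. On the others it was between 115 and 133. Chromosome 11 held the most sites, 1804 or 14.8 per Mb, and its sites were wider, with a median of 1772 bp against 1303 to 1647 bp elsewhere. The Med1 signal moved along, with medians of 557 and 446 per kb on chromosomes 11 and 15 and 282 to 415 on the others. The ratio of summed Med1 to summed IgG signal was 3.04 on the pair and 2.89 elsewhere. Of the 20 genes with most covered length 6 lie on chromosome 11, Sept9, Msi2, Tex14, Cuedc1, Bahcc1 and Rara. The chromosome carries 1653 of the 22350 protein-coding genes and 1804 of the 19956 sites. Over Sept9 the ratio of Med1 to IgG signal was 3.83, over Msi2 2.72, and over Nfib and Npas3 on other chromosomes 3.39 and 3.51. The part of the higher IgG level in these counts was not tested.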

How the data were processed

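Med1, Carm1, Jmjd1c and IgG chromatin of NS-5 cells was sequenced, with 1 library per antibody (4 samples). Bowtie 0.12.7 placed each read at its best match in mm9, after which the authors pooled any replicates, dropped duplicates (Picard 1.81) and called sites over IgG (MACS 1.4.2). Site coordinates were used as deposited. The signal values were made by the authors as read density scaled to mapped reads and summed over enhancer regions, and were divided here by region length.

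Sites were joined to GENCODE vM1 genes with Python 3.11.15, numpy 2.4.6, pandas 2.3.3 and pysam 0.24.0, and drawn with matplotlib 3.10.9. The gene TSS and end are the outermost annotated bases, an overlap is at least 1 bp, and 58 genes on other sequences were left out. Scripts were tested on simulated data. With 1 library per antibody no test was made, and Wilson 95% intervals are given.

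The members and lists were chosen with earlier results of these data known. Genes were named by rule: the 10 with most covered bp, the 10 protein-coding genes with most sites, the 5 extremes of spread into the gene, upstream and past the end, the 5 longest lying whole in 1 site, the 5 noncoding genes with most covered bp, the 5 sites farthest from genes, the 5 longest genes without a site, the most covered marker genes (up to 3 per list) and 9 genes named by the study. Gene-free intervals, family members and sites over many TSSs were singled out after their values were seen, as were the further marker genes named. Some genes that the rule names are not reported here. Alternatives changed the overlap rule, gene set, TSS definition, list length, distances and chromosomes.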

Additional observations from a re-analysis of the deposited data

How the results depend on the processing

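No paired analysis was possible because each antibody has 1 library. Of 40 alternatives, 15 moved a value by less than its interval or 1.5 times and 25 by more. Only the difference of spread at the TSS could change sign, since the other results are shares, counts or lengths. It kept its sign. The share of sites in gene bodies was 62.4% by site midpoint, 70.8% with protein-coding genes and 80.4% in the first 10000 sites. The share of protein-coding TSSs in a site was 42.1% with any transcript start, 39.9% with a midpoint within 1500 bp, 26.8% with the first 10000 sites and 38.5% without chromosomes 11 and 15. The median excess of spread into the gene was 238 bp without genes with another TSS within 5 kb and 214 bp in the first 10000 sites. The share of covered gene ends was 2.90% without genes whose TSS lies in the same site, 2.47% in genes over 10 kb, 2.08% without another TSS within 2 kb, 2.53% with the first 10000 sites and 3.53% without chromosomes 11 and 15. Median covered length was 1170 bp in protein-coding genes and 1180 bp with the first 10000 sites. The share of far sites was 15.8% at 10 kb, 2.77% at 100 kb, 9.41% from protein-coding genes only, 4.25% in the first 10000 sites and 6.35% without chromosomes 11 and 15. Genes with 3 or more sites made up 4.04% by midpoint, 4.26% with sites within 1 kb joined and 1.24% with the first 10000 sites. Ranking by covered share kept 0 of the 20 most covered genes. Leaving out host genes of 10 or more genes, and chromosomes 11 and 15 for spread and gene ends, was added after seeing the data. Fewer sites by construction lower the counts; otherwise the cause was not tested. Read depth is unknown, the list gives no heights, and 1 library per antibody gives no replicate error.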
